A study of Mus musculus with 7 samples.

Results

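The unfolded protein response (UPR) and the quality control of the endoplasmic reticulum (ER) were followed through 37 genes in sorted mouse LT-HSCs (long-term haematopoietic stem cells, which sustain all blood lineages). The genes were chosen by function, as sensors, transcription factors, chaperones, folding enzymes, disposal factors and targets of ATF4. The choice was made with earlier results of these data known. All 37 were found among the 34932 genes to which the deposited transcripts were summed. RNA was compared between 4 libraries labelled B4galt1 KO (full knockout, genotype 129S1/C57Bl/6, B4-/-) and 3 labelled WT (genotype 129S1/C57Bl/6). All 7 came from bone marrow LT-HSCs, sorted as lineage-negative, Sca-1+, c-Kit+, CD150+ and CD48- cells, and no treatment is named. The libraries are called KO1 to KO4 and WT1 to WT3 after their labels. Age, sex, cell number and whether the replicates were separate animals are not given in the labels, so p-values measure only how far these 7 samples spread, and that spread may be technical. In bulk RNA, fewer cells of a type and less RNA per cell cannot be told apart.

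B4galt1 encodes a galactosyltransferase of the Golgi, which extends N-glycans after they have left the ER. Inside the ER, newly made glycoproteins are folded by chaperones and by the lectins of the calnexin cycle, and those that fail are marked by mannose trimming and sent to the cytosol for degradation (ER-associated degradation, ERAD). Misfolded protein in the ER is read by 3 sensors. IRE1 (gene Ern1) splices Xbp1 mRNA, PERK (Eif2ak3) slows translation and favours production of ATF4, and ATF6 is cut in the Golgi to release a transcription factor. These sensors act through protein modification and RNA splicing, which the amount of their own mRNA does not show. Blood stem cells are known for low rates of protein synthesis and for sensitivity to ER stress.

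Some of these genes share a regulatory sequence, the ER stress response element (ERSE), a CCAAT box and a CCACG box set 9 bases apart. NF-Y and ATF6 are known to bind this element. In RefSeq promoter windows of GRCm38.p6, from 250 bases before to 50 after each start, CCAAT and CCACG with 9 bases of any kind between them were searched on both strands. Of the 37 genes, 33 had a window, and 9 of these held the motif, which was found in 0.137% of all 27025 genes with a window. The element is named for ER stress genes such as these, so its share among them is a description and no independent result. The 10 matches were picked by their letters alone and are not a list of genes under ATF6 control. The capitals are the boxes. Each is written 5′ to 3′ in the motif's own orientation.
Hspa5, chr2:34772025-34772043, plus strand: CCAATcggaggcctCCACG
Hsp90b1, chr10:86705638-86705656, minus strand: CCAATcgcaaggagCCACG
Hsp90b1, chr10:86705533-86705551, plus strand: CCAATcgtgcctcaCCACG
Calr, chr8:84847075-84847093, plus strand: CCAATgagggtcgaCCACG
Canx, chr11:50325800-50325818, minus strand: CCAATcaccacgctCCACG
Pdia6, chr12:17266491-17266509, plus strand: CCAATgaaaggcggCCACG
Dnajc3, chr14:118937827-118937845, plus strand: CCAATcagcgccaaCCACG
Creld2, chr15:88819520-88819538, minus strand: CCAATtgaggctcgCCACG
Syvn1, chr19:6046532-6046550, plus strand: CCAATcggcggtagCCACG
Derl3, chr10:75893242-75893260, minus strand: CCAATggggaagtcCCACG
The boxes were identical by construction of the search, and the 9 bases between them differed in every match. The related element ERSE-II, searched as ATTGG and CCACG with 1 base of any kind between them, was found in Dnajb11 and Herpud1, against 0.0444% of all genes. The core of the amino acid response element bound by ATF4, TGATGNAA, was found in Asns, Chac1, Herpud1 and Trib3, against 4.51% of all genes. The AP-1 motif TGANTCA was found in Ddit3, Eif2ak3, Hspa5 and Sel1l, against 8.97% of all genes. The ERSE and ERSE-II searches share the box CCACG. No window of the 33 held TGACGTGG, the core of the element bound by XBP1, which 0.714% of all genes held. A match is a description of the letters in this window and not evidence of binding.

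The upstream bases of 3 genes are given for reference, of which Creld2 and Ppp1r15a did not pass the test below. Of the 9 genes with an ERSE, Creld2 and Dnajc3 were lower in all libraries labelled KO by scaled counts. So were 7.47% of all tested genes, and 9 genes are too few to set against that share. The other genes with an ERSE overlapped, and Dnajc3 overlapped per transcript length. Any link between the motifs and the differences was not tested. Edem1 is the gene that passed the test, and none of the motifs searched lay in the 250 bases upstream of it (chr6:108828391-108828640, plus strand). Creld2, all of whose libraries labelled KO lay below WT, is shown with its ERSE boxes in capitals (chr15:88819396-88819645, plus strand), where the element reads on the opposite strand. Ppp1r15a lay above WT in all libraries labelled KO by scaled counts, but its groups overlapped per transcript length. It is shown for the 60 bases next to its start (chr7:45526269-45526328, minus strand) with a cAMP response element, TGACGTCA, in capitals, a motif that 2.03% of all genes held.
Edem1: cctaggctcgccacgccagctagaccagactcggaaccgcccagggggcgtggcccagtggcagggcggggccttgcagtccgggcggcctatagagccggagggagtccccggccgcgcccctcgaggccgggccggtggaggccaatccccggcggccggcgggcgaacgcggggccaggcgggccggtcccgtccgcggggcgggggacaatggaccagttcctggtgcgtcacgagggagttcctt
Creld2: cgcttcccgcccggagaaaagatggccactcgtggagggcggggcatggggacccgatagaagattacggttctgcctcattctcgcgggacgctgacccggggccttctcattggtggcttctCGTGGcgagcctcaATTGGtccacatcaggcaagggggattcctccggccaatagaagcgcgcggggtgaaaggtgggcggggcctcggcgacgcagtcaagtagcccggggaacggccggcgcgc
Ppp1r15a: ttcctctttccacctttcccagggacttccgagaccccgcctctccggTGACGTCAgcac

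The libraries held 23508985 to 34941390 estimated reads each. B4galt1 RNA, which checks the labels, differed between the groups by less than the replicate spread (15.9 ± 2.28 CPM, SD, n = 4, against 18.3 ± 6.62 CPM, SD, n = 3; edgeR adjusted p = 0.758), so every direction below rests on the labels. The labels do not name the deleted bases. CPM are counts scaled to the effective library size. All 12 LT-HSC markers were detected in every library and summed to 1308 to 1541 CPM in the libraries labelled KO and 1563 to 1833 CPM in WT. The 10 megakaryocyte and platelet markers summed to 1036 to 1959 CPM against 5169 to 11509 CPM. The 11 granulocyte and monocyte markers summed to 127.4 to 212.4 CPM against 96.1 to 105.6 CPM. Prtn3 made the largest part (80.8 to 147.4 against 64.7 to 83.3 CPM) and overlapped. Mpo was higher (39.5 against 7.03 CPM as means) and S100a8, S100a9, Ngp and Camp lower in every library labelled KO than in any WT library. These 4 lower markers stayed at or below 9.09 CPM. The megakaryocyte and granulocyte differences run beside every result here, and their part in the results was not tested. The 7 erythroid markers summed to 1600, 471.2, 389.8 and 240.6 CPM over KO1 to KO4 and 1018, 250.9 and 145.3 CPM in WT. This sum overlapped, and Car1 made the largest part of it in KO1 (1462 CPM) and WT1 (808.4 CPM). Hba-a1 was lower in every library labelled KO (at most 10.7 CPM) than in any WT library (at least 46.4 CPM). The other erythroid markers overlapped, and the part of these differences in the results was not tested. The 10 B and plasma cell markers summed to 54.5 to 71.7 CPM against 68.8 to 84.3 CPM, of which Cd79b made 47.6 to 68.2 CPM. Of the other 9, Igkc reached 9.42 CPM in WT2 and Ighm 6.21 CPM in KO4, Sdc1 was lower in every library labelled KO (1.21 against 3.07 CPM as means), and Jchain and Mzb1 stayed at or below 2.55 CPM. KO4 and WT3 had little Y-linked RNA (10.9 and 6.04 CPM over 4 genes against at least 255.7 CPM elsewhere). KO4 and WT2 stood apart over the whole transcriptome, being the highest of the 7 libraries for 26.8% and 25.1% of all tested genes, and values without them are given where they move a result.

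The 37 genes were expressed over a wide range of levels. Compared per transcript length, as TPM (reads scaled by transcript length and by library), the highest was Manf, a small secreted ER protein that binds BiP, at 263.5 ± 21.7 TPM (SD, n = 4) over KO1 to KO4 and 331.6 ± 75.3 TPM (SD, n = 3) in WT. It was followed by the lectin chaperone Calr (266.5 ± 65.7 against 222.5 ± 47.2 TPM), the disulfide isomerase Pdia3 (260.5 ± 79.2 against 206.6 ± 89.3 TPM) and Hspa5, which encodes BiP, the main ER chaperone (208.9 ± 77.2 against 171.1 ± 22.0 TPM). In WT every Manf value (266.9 to 414.2 TPM) lay above every Hspa5 value (149.8 to 193.7 TPM), while in the libraries labelled KO these 2 overlapped. The other levels lay within each other's range in both groups, so their order is not fixed by these data. The sensors were near the bottom, with Ern1, Eif2ak3 and Atf6 between 2.82 and 5.93 TPM as group means. Among the transcription factors, Xbp1, Atf4 and Ddit3 ran from 48.2 to 97.7 TPM. The lowest were Sesn2, Derl3 and Chac1, with Chac1, a glutathione-degrading enzyme induced late in ER stress, at 1, 16, 0 and 0 reads over KO1 to KO4 and 0, 0 and 20 reads over WT1 to WT3. Chac1 was the only one of the 37 that did not pass the filter on low counts, and it was not tested.

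**Figure D1:**
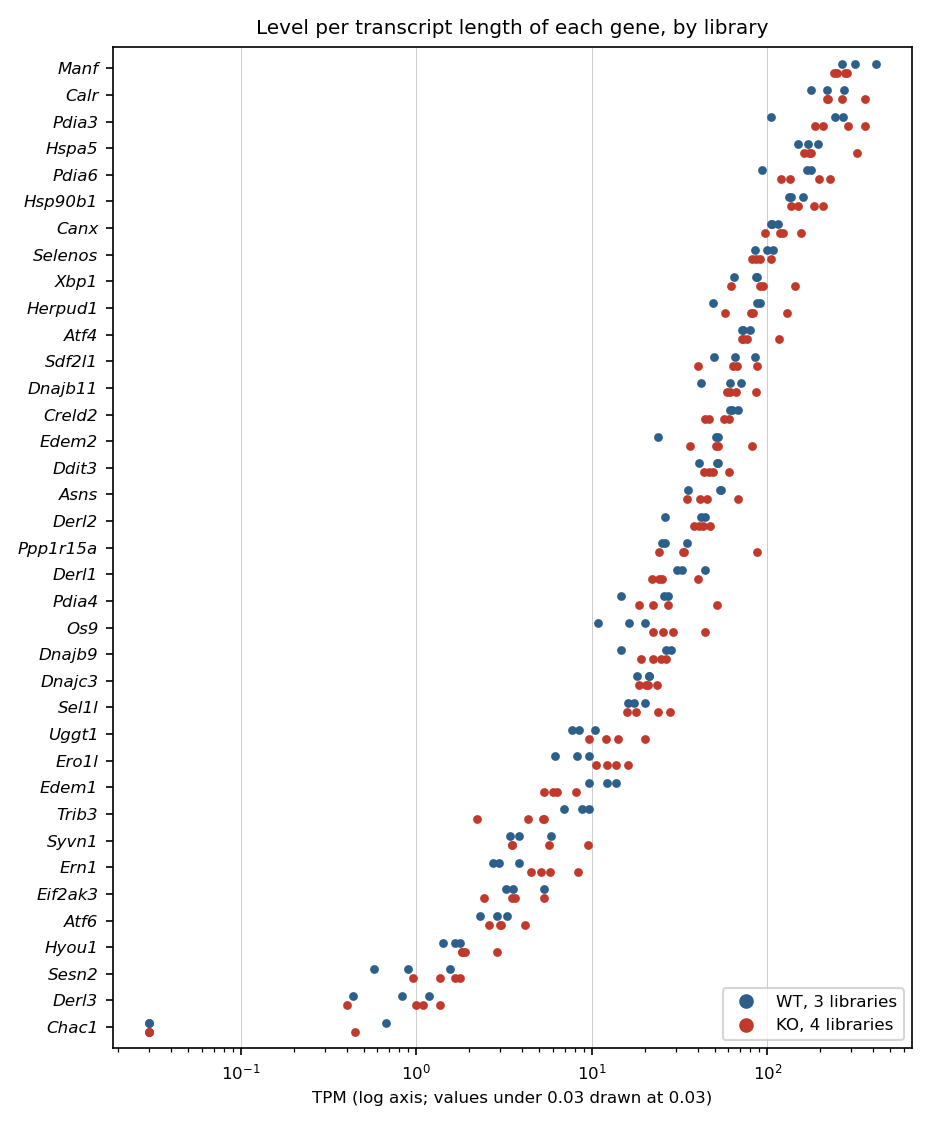
Level of each of the 37 genes in TPM (log axis, values under 0.03 drawn at 0.03), with 1 point per library, blue for the 3 WT libraries and red for the 4 labelled KO. Genes are ordered by their mean over the 7 libraries, from Chac1 at the bottom to Manf at the top.

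In the comparison of the libraries labelled KO with WT, 1 of the 36 tested genes passed edgeR's quasi-likelihood test at an adjusted p below 0.05. Edem1, which speeds the disposal of misfolded glycoproteins, fell, and 0 genes rose. Over all 14695 genes tested, 1.66% were called lower and 0.599% higher, so 1 lower gene of 36 is near the background. At an unadjusted p below 0.05, 5 were lower and 2 higher, against 7.21% and 7.42% of all tested genes. DESeq2 called 3 lower (3.5% of all genes) and 2 higher (2.4%), and limma voom called 2 lower (2.99%) and 0 higher (1.83%). An offset for transcript length left 1 lower (1.71%) and 0 higher (1.46%), and Y-linked expression as a covariate gave 1 lower (2.69%) and 1 higher (1.48%). Among the 5 libraries with Y-linked expression, 2 were lower (1.7%) and 0 higher (0.612%). The median log2 fold change, given as KO minus WT throughout, was -0.06, beside 0.03 over all tested genes, with 22 genes below 0 and 14 above.

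All libraries labelled KO lay below all WT libraries for 6 of the 36 genes (16.7%), against 7.47% of all tested genes. They lay above for 3 (8.33%), against 8.23%. The lower ones were Edem1, Derl1, Trib3, Creld2, Dnajc3 and Derl2, and the higher ones Ppp1r15a, Os9 and Hyou1. These 9 genes come from several roles and include 4 disposal factors, 3 chaperones and co-chaperones and 2 targets of the PERK and ATF4 branch. They were picked in CPM. In TPM the groups overlapped for Derl1, Dnajc3, Derl2 and Ppp1r15a, and they did not for Edem1, Trib3, Creld2, Os9 and Hyou1.

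**Figure D2:**
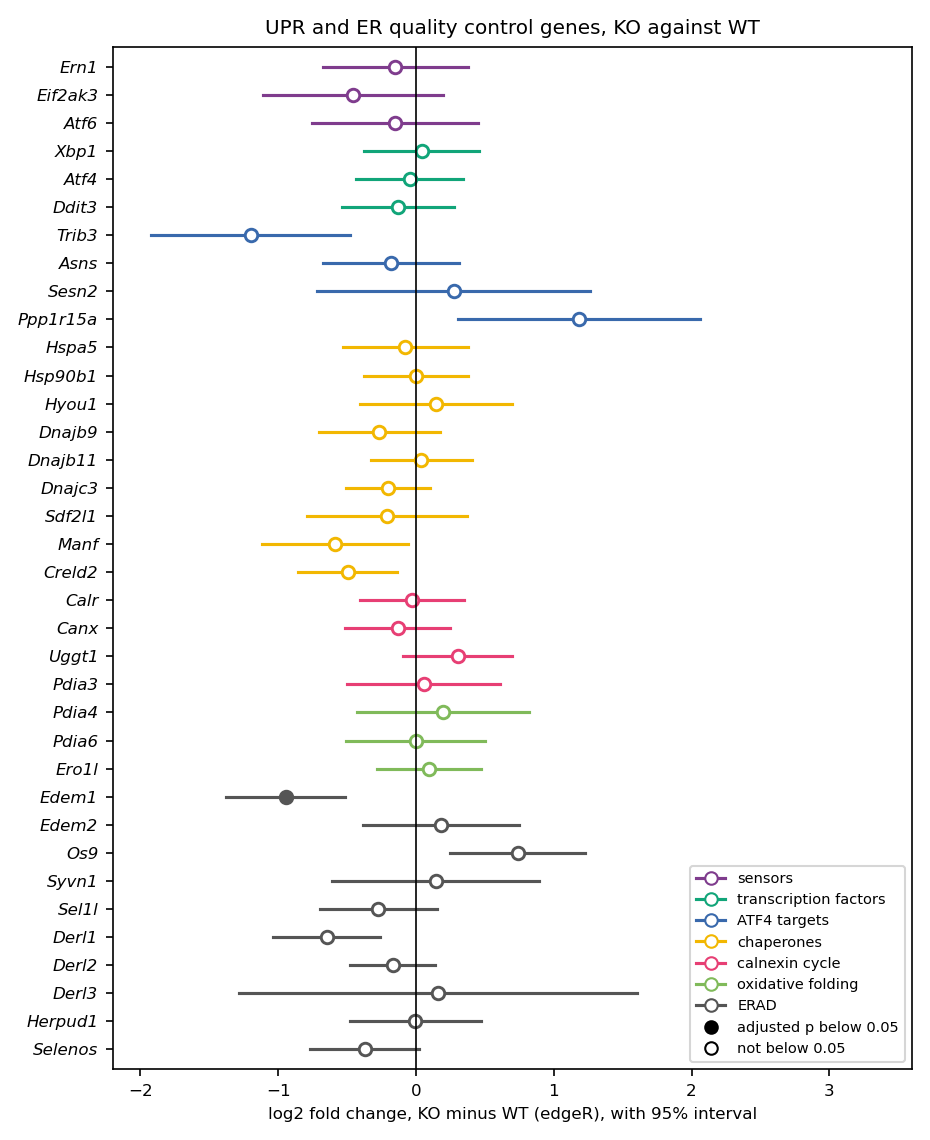
Log2 fold change, KO minus WT, of the 36 tested genes with its 95% interval, from edgeR; colours give the role and the filled point the gene with an adjusted p below 0.05. Edem1, at -0.95, is the filled point, and intervals that exclude 0 without passing the adjusted test are seen for Trib3, Derl1, Manf and Creld2 below 0 and for Ppp1r15a and Os9 above.

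The 3 sensors did not pass the test. Ern1 was at 22.8, 22.3, 16.0 and 15.8 CPM over KO1 to KO4 and 16.0, 25.1 and 23.02 CPM over WT1 to WT3. Eif2ak3 was at 9.33, 11.4, 12.0 and 12.7 CPM against 12.2, 23.7 and 10.9 CPM, and its log2 fold change of -0.46 (SE 0.295) rests on WT2, without which it was -0.05. Atf6 was at 28.3, 20.8, 19.9 and 14.1 CPM against 22.2, 29.8 and 17.2 CPM. The groups overlapped for all 3. The 95% intervals ran from -0.68 to 0.38 for Ern1, from -1.11 to 0.20 for Eif2ak3 and from -0.76 to 0.45 for Atf6. These intervals are without a correction for transcript length, which turned the value for Ern1 to 0.64.

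The mRNAs of the transcription factors were close between the groups. Xbp1 was at 111.2, 165.5, 151.3 and 193.5 CPM over KO1 to KO4 and 158.1, 143.6 and 150.9 CPM in WT, a log2 fold change of 0.04 (SE 0.189). Atf4, the effector of PERK, was at 114.4, 108.3, 103.8 and 142.6 CPM against 112.2, 145.2 and 105.7 CPM (-0.04, SE 0.175). Ddit3, which encodes CHOP and is induced by ATF4, was at 33.6, 30.5, 40.1 and 26.6 CPM against 37.6, 34.1 and 35.4 CPM (-0.13, SE 0.184). The groups overlapped for each, and the intervals of Atf4 and Xbp1 stayed within -0.43 and 0.46. The spliced form of Xbp1, the direct readout of IRE1, could not be measured, since none of the 4 annotated Xbp1 transcripts lacks the short intron that IRE1 removes.

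Among the targets of ATF4 and CHOP, Trib3 and Ppp1r15a lay on opposite sides. Trib3, a pseudokinase that is a standard marker of this branch, was at 3.59, 8.72, 7.68 and 5.78 CPM over KO1 to KO4 and 16.2, 17.1 and 11.04 CPM over WT1 to WT3. Every library labelled KO was below every WT library. The difference of -1.20 on the log2 scale (SE 0.327) missed the threshold in edgeR (adjusted p = 0.104) and passed it in DESeq2 (adjusted p = 0.0103). Asns, asparagine synthetase and the best known amino acid response target, was at 78.4, 76.5, 62.0 and 96.0 CPM against 103.1, 59.2 and 103.8 CPM and overlapped. Sesn2, a stress-induced inhibitor of mTORC1, was low in all libraries, at 1.595 to 5.29 CPM.

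Ppp1r15a, which encodes GADD34, the phosphatase subunit that reverses the action of PERK, was at 53.0, 48.9, 56.1 and 143.2 CPM over KO1 to KO4 and 40.7, 20.9 and 37.9 CPM over WT1 to WT3. All 4 libraries labelled KO were above WT, and KO4 was far above the other 3. The difference came to 1.18 on the log2 scale (SE 0.397), at an edgeR adjusted p of 0.191 and a DESeq2 adjusted p of 0.0382, and 0.67 without KO4 (edgeR adjusted p = 0.236). It was 0.40 (edgeR adjusted p = 0.235) without KO4 and WT2. With an offset for transcript length it was 0.30 (edgeR adjusted p = 0.7), and in TPM the groups overlapped (24.1 to 87.1 against 25.3 to 34.9). In WT2 the shorter transcript Ppp1r15a-203 took 36.97% of the gene's estimated reads and in the other libraries at most 4.06%. Ppp1r15a is also known as an immediate early gene. Summed over 20 such genes, other than Ppp1r15a, the level was 983.9, 1235, 1428 and 2347 CPM over KO1 to KO4 and 954.8, 788.8 and 1051 CPM in WT, and the part of this in the difference was not tested.

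**Figure D3:**
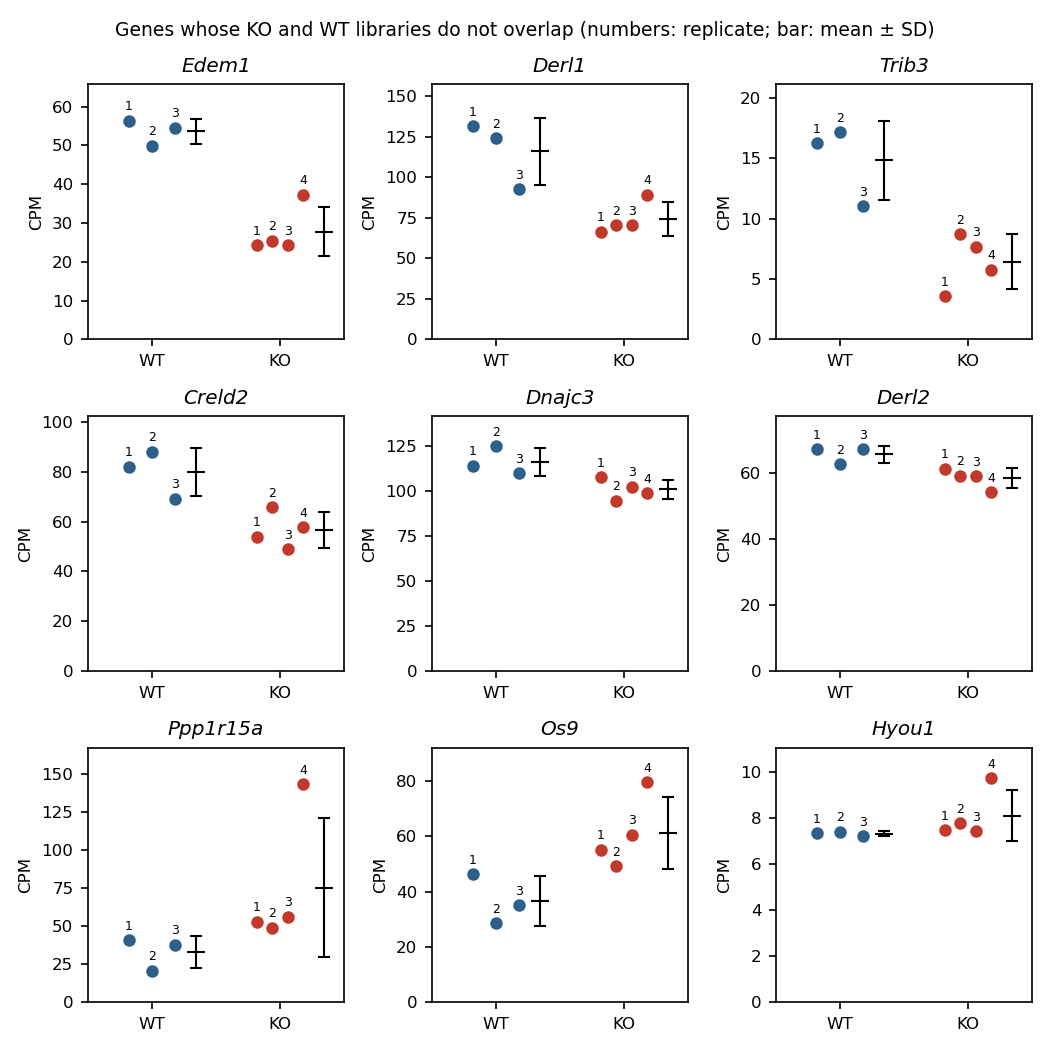
CPM per library of the 9 genes whose groups do not overlap, with the replicate number above each point and the mean ± SD beside each group (WT n = 3, blue; labelled KO n = 4, red; axes start at 0). The upper and middle rows hold the 6 genes lower in the libraries labelled KO, and the bottom row the 3 higher ones, where KO4 is the highest point in each panel.

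The ER chaperones did not pass the test, and the most abundant of them overlapped between the groups. Hspa5 was at 340.3, 392.3, 347.9 and 579.2 CPM over KO1 to KO4 and 465.9, 460.7 and 388.4 CPM in WT. Of the libraries labelled KO, KO1 and KO3 were below the WT range and KO4 above it. Its log2 fold change was -0.08 (SE 0.205, 95% interval -0.53 to 0.37), and -0.28 without KO4. Hsp90b1, which encodes GRP94, was at 419.1, 511.8, 359.2 and 472.2 CPM against 459.7, 480.7 and 378.2 CPM, with an interval from -0.37 to 0.38. Hyou1, a nucleotide exchange factor for BiP, was at 7.45, 7.76, 7.42 and 9.73 CPM against 7.34, 7.402 and 7.2 CPM. Its groups did not overlap, but only KO4 stood clear of WT, and its log2 fold change of 0.15 (SE 0.25) was 0.053 without that library.

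Among the smaller ER-stress-induced proteins, Creld2 was at 53.9, 65.9, 48.9 and 57.7 CPM over KO1 to KO4 and 82.1, 88.2 and 69.3 CPM in WT. All libraries labelled KO were lower, with a log2 fold change of -0.50 (SE 0.163, edgeR adjusted p = 0.18). Manf was at 206.0, 212.5, 175.7 and 145.4 CPM against 243.7, 393.7 and 196.4 CPM (-0.59, SE 0.238, edgeR adjusted p = 0.29). The groups overlapped for Manf, and without WT2 the value was -0.28. Dnajc3, the co-chaperone p58IPK that also restrains PERK, was at 107.6, 94.7, 102.5 and 98.9 CPM against 114.1, 125.0 and 109.9 CPM, which did not overlap, for a log2 fold change of -0.21 (SE 0.138, edgeR adjusted p = 0.525). In TPM Dnajc3 overlapped (18.5 to 23.4 against 18.2 to 21.2). The other J-domain co-chaperones Dnajb9 (-0.27, SE 0.198) and Dnajb11 (0.04, SE 0.166), and Sdf2l1, the partner of Dnajb11 (-0.21, SE 0.262), overlapped between the groups.

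The calnexin cycle, which holds glycoproteins that carry a single glucose until they fold, did not pass the test either. Its lectins Calr (-0.03, SE 0.171) and Canx (-0.13, SE 0.172) had intervals from -0.41 to 0.35 and from -0.51 to 0.25. Pdia3, the disulfide isomerase that works with them, was at 466.6, 675.1, 464.4 and 678.7 CPM over KO1 to KO4 and 639.6, 344.7 and 665.1 CPM in WT, a spread within each group that exceeded the difference (0.06, SE 0.25). Uggt1, which puts glucose back on glycoproteins that are still unfolded, was at 51.8, 39.6, 45.3 and 53.9 CPM against 44.6, 37.3 and 33.8 CPM (0.30, SE 0.179, edgeR adjusted p = 0.471). The oxidative folding enzymes Pdia4 (0.20, SE 0.281), Pdia6 (-0.0016, SE 0.228) and Ero1l, the oxidase that recharges disulfide isomerases (0.09, SE 0.169), also overlapped. Pdia4 stood at 99.4 CPM in KO4 and at 42.2 to 63.7 CPM in the other 6 libraries, and its value was -0.097 without KO4.

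The 1 gene that passed was among the 10 disposal genes. Edem1 (chr6:108828641-108859356, plus strand) was at 24.2, 25.5, 24.3 and 37.3 CPM over KO1 to KO4 and 56.3, 49.9 and 54.5 CPM over WT1 to WT3. All libraries labelled KO were lower, and KO4 was the nearest to WT. The means were 27.8 ± 6.32 CPM (SD, n = 4) and 53.6 ± 3.29 CPM (SD, n = 3), and the log2 fold change was -0.95 (SE 0.194, 95% interval -1.38 to -0.52, edgeR adjusted p = 0.0326). It passed with DESeq2 (adjusted p = 0.000255) and limma voom (adjusted p = 0.000738). The call was lost when any 1 library other than KO4 was left out, with values from -1.02 to -0.89 and adjusted p from 0.0613 to 0.118, and it passed without KO4 (-1.11, adjusted p = 0.00404).

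Derl1 (chr15:57869502-57892448, minus strand), a membrane protein of the channel through which misfolded proteins leave the ER, was at 66.2, 70.3, 70.4 and 89.3 CPM over KO1 to KO4 and 131.4, 124.0 and 92.6 CPM in WT. The groups did not overlap in CPM, though KO4 and WT3 were close. In TPM Derl1 overlapped (21.9 to 40.4 against 30.7 to 44.3). At -0.65 on the log2 scale (SE 0.175) it missed the threshold in edgeR (adjusted p = 0.101) and passed DESeq2 (adjusted p = 0.0134), limma voom (adjusted p = 0.0184) and edgeR without KO4 (-0.74, adjusted p = 0.0423). Its relative Derl2 was at 61.3, 59.1, 59.1 and 54.2 CPM against 67.2, 62.7 and 67.3 CPM, a small difference without overlap (-0.17, SE 0.139, edgeR adjusted p = 0.601). With the length offset it was -0.047, and in TPM Derl2 overlapped (38.1 to 46.9 against 26.0 to 44.05). Derl3, the third derlin, stayed at or below 1.22 CPM in every library.

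Os9 (chr10:127095650-127121131, minus strand), the lectin that reads the trimmed glycans which EDEM proteins help to make, lay the other way. It was at 55.1, 49.3, 60.7 and 79.6 CPM over KO1 to KO4 and 46.2, 28.6 and 35.2 CPM in WT, without overlap. At 0.74 on the log2 scale (SE 0.222) it missed the threshold in edgeR (adjusted p = 0.142) and passed DESeq2 (adjusted p = 0.0431), and it was 0.41 without KO4 and WT2. Edem2, which makes the first mannose cut in this pathway, was at 69.5, 101.5, 99.0 and 131.7 CPM against 108.0, 57.7 and 99.7 CPM and overlapped (0.18, and 0.027 without KO4). The ubiquitin ligase Syvn1 (0.14, SE 0.34, and -0.12 without KO4), its partner Sel1l (-0.27, SE 0.192), the scaffold Herpud1 (-0.0037, SE 0.214) and Selenos, which recruits the p97 ATPase (-0.37, SE 0.178, edgeR adjusted p = 0.375), did not pass and overlapped.

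**Figure D4:**
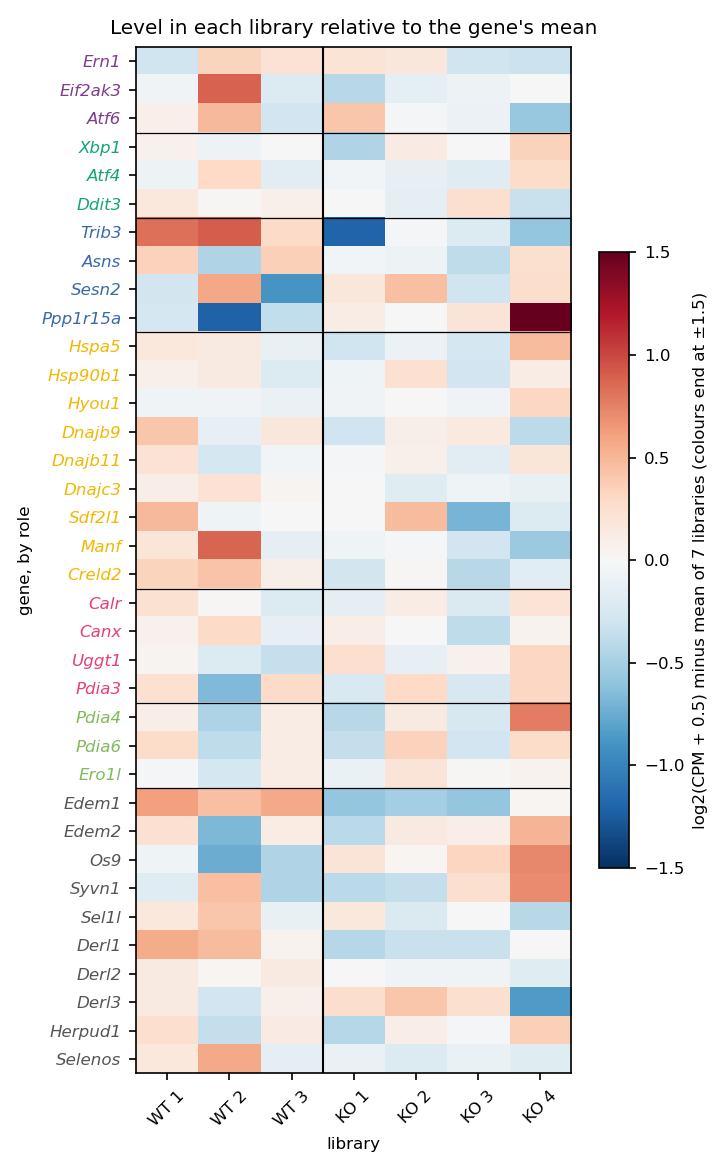
Level of the 36 tested genes in each library as log2(CPM + 0.5) minus the gene's mean over the 7 libraries, grouped by role, with WT to the left of the line and the libraries labelled KO to the right (colours end at ±1.5). The row of Edem1 splits by group, while most chaperone rows do not, and KO4 and WT2 hold the highest and lowest Ppp1r15a.

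Read by library, the extremes were shared out as follows. WT2 was the highest of the 7 libraries for 12 of the 36 genes (33.3%, against 25.1% of all tested genes) and the lowest for 9 (25.0%, against 25.2%). KO4 was the highest for 11 (30.6%, against 26.8%) and the lowest for 8 (22.2%, against 25.5%). Within the libraries labelled KO the level of the 37 genes summed to 4050, 4759, 3884 and 5162 CPM, and within WT to 5067, 4599 and 4440 CPM, so the sum overlapped. The heat map of levels by library shows KO4 above the others in Hspa5, Pdia4, Edem2, Os9, Syvn1 and Ppp1r15a and below them in Derl3 and Manf.

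The transcripts behind the gene sums were also compared, and this was done after their values were seen. Estimated reads on transcripts annotated as retained introns made up 3.12%, 2.43%, 3.00% and 3.13% of the reads of the 37 genes over KO1 to KO4 and 2.29%, 2.02% and 2.11% over WT1 to WT3. All libraries labelled KO were above WT, and the same held over all genes (4.49% to 5.24% against 3.70% to 4.05%). Over all genes an exact two-sided permutation test gave p = 0.0571, the smallest that 4 against 3 libraries allow. Groups without overlap fix this value in advance, so it adds nothing to the separation already seen. Of 68 transcripts of the 36 tested genes that took at least 5% of their gene's reads in some library, 7 did not overlap between the groups (10.3%), against 12.5% of 38519 such transcripts over all tested genes, so their number is near the background. Of the 11 that are retained introns, 1 was higher and 1 lower in every library labelled KO, against 14.2% and 3.09% over all tested genes.

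The higher one belongs to Sel1l, the adaptor of the Syvn1 ligase. Retained-intron transcripts of Sel1l took 32.6%, 23.4%, 28.5% and 26.0% of its reads in the libraries labelled KO and 13.2%, 8.77% and 8.61% in WT, while its main coding transcript Sel1l-201 took 62.9% to 73.7% against 82.2% to 85.2%. The lower one, Uggt1-206, ran the other way, at 15.5%, 3.95%, 16.2% and 0% of Uggt1's reads over KO1 to KO4 and 27.3%, 42.4% and 18.8% in WT. The other 9 retained-intron transcripts overlapped. Apart from Sel1l-201, the coding transcripts without overlap were Atf6-201, Ern1-201, Hspa5-202 and Ppp1r15a-203, each with a lower share in the libraries labelled KO.

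**Figure D5:**
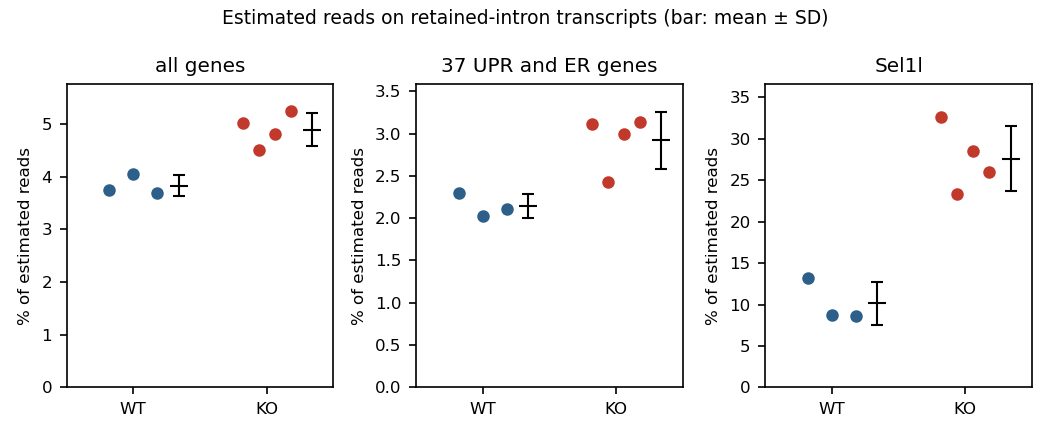
Percent of estimated reads on transcripts annotated as retained introns, over all genes, over the 37 genes and for Sel1l, with 1 point per library and the mean ± SD (WT n = 3, blue; labelled KO n = 4, red; axes start at 0). The groups do not overlap in any panel, and Sel1l has 27.6% ± 3.92 (SD, n = 4) against 10.2% ± 2.59 (SD, n = 3).

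A transcript difference also touched Ern1. Its main transcript Ern1-201 took 95.8%, 93.8%, 89.8% and 83.4% of the gene's reads over KO1 to KO4 and 98.5%, 99.5% and 95.9% in WT, the rest falling on shorter transcripts. In TPM, which divides by length, Ern1 was at 4.49, 5.74, 5.11 and 8.39 in the libraries labelled KO and 2.72, 2.96 and 3.85 in WT, without overlap, whereas its CPM overlapped. With the length offset its log2 fold change was 0.64 (edgeR adjusted p = 0.2) against -0.15 without it, so the direction for Ern1 turns with the treatment of length. Ero1l likewise did not overlap in TPM (12.2, 13.7, 10.5 and 16.0 over KO1 to KO4, 8.24, 6.14 and 9.69 over WT1 to WT3), and with the offset it stood at 0.47 (edgeR adjusted p = 0.237). The share of all tested genes without overlap in TPM was not counted, so these separations may be ordinary. Over all tested genes, edgeR called 215 higher with the offset and 88 without it.

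Other genes of the same pathways, 152 in 8 lists, were read beside the 37. Of the 148 tested, 8 were lower (5.41%) and 11 higher (7.43%) at an unadjusted edgeR p below 0.05. Over all tested genes the shares were 7.21% and 7.42%, so these counts are near the background. Of the 11 higher, 9 were immediate early genes. Of the 20 genes that transfer and trim N-glycans in the ER, 0 passed edgeR or DESeq2 and 0 had an unadjusted edgeR p below 0.05. Their median log2 fold change was 0.0030, and Prkcsh, a glucosidase II subunit, was higher in every library labelled KO than in any WT library (0.33, SE 0.148, edgeR adjusted p = 0.345). Of 20 other ERAD genes 0 passed either tool, with 2 lower at an unadjusted p below 0.05. They were Ubxn8 (-0.41, SE 0.155) and Erlec1 (-0.55, SE 0.206), the latter a lectin related to Os9. Of 17 translocon and signal peptidase genes 0 passed, with a median of -0.17 and 1 higher at an unadjusted p below 0.05, Srpr, the receptor of the signal recognition particle (0.48, SE 0.178).

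Of 17 other ER folding enzymes 0 passed edgeR or DESeq2, with 2 lower at an unadjusted p below 0.05, the prolyl isomerases Fkbp2 (-0.57, SE 0.25) and Ppib (-0.49, SE 0.195). Of 27 tested genes of the integrated stress response beyond ATF4's targets above, 0 passed either tool and limma voom called 1 higher. Eif2ak2, the interferon-induced kinase PKR, was the 1 gene higher at an unadjusted p below 0.05 (0.66, SE 0.259, edgeR adjusted p = 0.275), and the companion of Ppp1r15a, Ppp1r15b, was at -0.53 (SE 0.242). Of 14 other UPR regulators 0 passed either tool, with Tmbim6, an ER membrane protein that limits IRE1, at -0.59 (SE 0.232, edgeR adjusted p = 0.275). Of 14 tested cytosolic heat shock genes 0 passed either tool, with Dnajb4 (-0.45, SE 0.157) and Bag3 (-0.60, SE 0.259) lower at an unadjusted p below 0.05. Hspa1b was at 33.3 CPM in KO4 and at most 2.62 CPM in any other library. Of 19 tested immediate early genes edgeR called 1 higher, Jun (3.11, SE 0.59, adjusted p = 0.0218), DESeq2 6 (31.6%, against 2.4% of all genes) and limma voom 1. At an unadjusted p below 0.05, 9 were higher (47.4%, against 7.42% of all genes) and 1 lower (5.26%, against 7.21%). The length offset called 1 gene higher in each of 4 lists, among them Srpr (0.97, adjusted p = 0.023) and Dnajc10, a disulfide reductase of the ER (0.69, adjusted p = 0.0454).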

How the data were processed

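RNA-seq libraries of sorted LT-HSCs, 4 labelled KO and 3 labelled WT, came as transcript-level files. Their making involved cutadapt, Salmon 0.11.2 and mm10, per the submitters' processing notes, which name no transcript set. Analysed were the deposited estimated counts, rounded after summing. The deposited TPM values were used for levels per length, and the deposited effective lengths for the length offset. The kit (SMART-Seq v4), per the labels' protocols, does not mark strand, so reads of overlapping genes cannot be told apart. Exons of Ddit3, Ppp1r15a, Hsp90b1, Manf, Pdia3, Pdia6, Syvn1 and Derl2 share from 0.397% to 10.3% of their bases with another gene.

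Transcripts were joined without version to GENCODE M21 (GRCm38). Of 112092 transcripts, 305 did not match and held at most 0.123% of the reads. Counts were summed to genes. Of 2 genes named Ddit3, the one with reads was used. The groups were compared with edgeR 4.0.16 (R 4.3.3), by TMM scaling, filterByExpr and the quasi-likelihood test, with Benjamini-Hochberg adjustment over all 14695 tested genes at 0.05. SE is the absolute log2 fold change over the square root of F, and 95% intervals use the moderated degrees of freedom. On simulated counts for this comparison (14384 genes tested), 37% of 100 genes changed 2-fold and 80% of 100 changed 4-fold were called. DESeq2 1.42.0, limma 3.58.1, other scalings and filters, the covariate and each library left out were alternatives. Replicates correlated at 0.939 or more within groups (log2 CPM), and none were identical. Every one of the 37 genes is named. From each of the 8 pathway lists, genes were named among the 3 of smallest p. The genes and lists were chosen with earlier results of these data known. The planned test of Xbp1 splicing could not be made because the spliced form is not among the transcripts.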

Additional observations from a re-analysis of the deposited data

Results flagged for a closer look

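In the group labelled KO, 3 of the 36 tested genes had 1 library far from the other 3, in each case KO replicate 4, which was high. The nominal rate of such flags is about 1 in 20, and the share flagged over all tested genes was not counted. KO replicate 4 was the highest library for 26.8% of all tested genes and the lowest for 25.5%. The 3 flags are therefore not read as particular to these genes. Ppp1r15a was at 143.2 CPM against 48.9 to 56.1 CPM. Edem1 was at 37.3 CPM against 24.2 to 25.5 CPM. Hyou1 was at 9.73 CPM against 7.42 to 7.76 CPM. KO replicate 4 was also the deepest library, had little Y-linked RNA and had the highest summed level of immediate early genes (2347 CPM), and the part of each in these values was not tested. WT, with 3 libraries, was not examined in this way.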

How the results depend on the processing

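Edem1 was lower under all 19 alternatives (-1.19 to -0.89) and passed in 13. Of the 37 genes, DESeq2 called 2 higher and 3 lower, limma voom 2 lower, the Y-linked covariate 1 higher, and leaving out 1 library 0 to 2 lower. The subsets chosen after seeing the data were the libraries with Y-linked expression and the 5 libraries other than KO4 and WT2, and each called 2 lower, with a median of -0.15 over the genes in the latter. Over all genes, 88 higher and 244 lower became 352 and 514 with DESeq2, 269 and 439 with limma voom and 218 and 396 with the Y-linked covariate. The higher count was 215 with the length offset and 137 without KO4 and WT2. Without 1 library, 30 to 130 were higher and 157 to 279 lower. The share of calls that were higher was 26.5%, against 40.6% with DESeq2, 38.0% with limma voom and 46.1% with the length offset, and the cause was not tested.

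Libraries of the same replicate number did not vary together (correlations of deviations -0.0525, -0.120 and -0.0392 for numbers 1 to 3). Pairings across different numbers were not examined. With the replicate block, 58 genes were higher and 182 lower, and Edem1 stayed the 1 called (-1.12, adjusted p = 0.0274). Under the block the direction turned for Atf6 (0.013), Xbp1 (-0.10), Hsp90b1 (-0.039), Dnajb11 (-0.0099), Pdia3 (-0.010), Pdia4 (-0.10) and Syvn1 (-0.12).

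Other turns of direction were all in genes that did not pass. Hsp90b1 was at -0.012 with RLE scaling and with DESeq2, -0.010 with the length offset, -0.037 with upper quartile scaling, -0.0017 with no filter, -0.0059 with a stricter filter and -0.0078 with protein-coding genes only. With limma voom, Atf6 was 0.0018, Xbp1 -0.035, Hsp90b1 -0.022, Dnajb11 -0.10, Pdia3 -0.16, Pdia4 -0.13 and Edem2 -0.025. With the length offset, Ern1 was 0.64, Hspa5 0.016, Dnajb11 -0.0013, Calr 0.0091 and Sel1l 0.0040. With the covariate, Pdia6 was 0.011, Derl3 -0.13 and Herpud1 0.0081. Within the libraries with Y-linked expression, Ern1 was 0.0070, Xbp1 -0.071, Sesn2 -0.066, Hsp90b1 -0.12, Dnajb11 -0.025, Pdia4 -0.00063 and Syvn1 -0.30. Without KO4 and WT2, Ern1 was 0.045, Atf6 0.20, Xbp1 -0.14, Dnajb11 -0.15, Pdia3 -0.31, Pdia4 -0.29, Ero1l -0.029 and Edem2 -0.23. Leaving out 1 library gave ranges across 0 for Atf4 (-0.15 to 0.080), Atf6 (-0.35 to 0.047), Calr (-0.15 to 0.070), Derl3 (-0.050 to 0.49), Dnajb11 (-0.10 to 0.16), Edem2 (-0.075 to 0.33), Ero1l (-0.030 to 0.17), Herpud1 (-0.19 to 0.11), Hsp90b1 (-0.11 to 0.084), Pdia3 (-0.22 to 0.19), Pdia4 (-0.10 to 0.32), Pdia6 (-0.20 to 0.12), Sesn2 (-0.059 to 0.82), Syvn1 (-0.12 to 0.43) and Xbp1 (-0.074 to 0.16). The planned share of spliced Xbp1 was not run. Chac1 had too few reads to be tested.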
